A study of Mus musculus with 2 samples.

Results

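Small leucine-rich proteoglycans (SLRPs) are secreted proteins built from a short run of leucine-rich repeats, most of which carry chains of sulphated sugars. The 10 members described here were chosen by name: Dcn, Bgn, Aspn, Fmod, Lum, Kera, Omd, Prelp, Ogn and Epyc. They are 10 of the 22612 genes with at least 1 unique molecular identifier (UMI) among the kept cells, and each of the 10 had UMIs in both libraries. SLRPs fold into a curved solenoid whose inner face binds collagen, and they govern the width and spacing of collagen fibrils in tendon, cartilage, bone, skin and cornea. Several also hold growth factors of the TGF-β family in the matrix or bind receptors on cells. By sequence, class I holds Dcn, Bgn and Aspn, class II holds Fmod, Lum, Kera, Omd and Prelp, and class III holds Ogn and Epyc.

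The study asked how fetal bone marrow is organised and which of its cells act on haematopoietic stem and progenitor cells (HSPCs). Per the study's methods, WT marrow was from C57BL/6 mice, and the mutant lines were kept on a predominantly C57BL/6 background. Marrow cells of embryos at E18.5 were freed from bone by crushing and collagenase and depleted of lineage-committed blood cells with magnetic beads. They were profiled with the BD Rhapsody whole-transcriptome kit, which catches single cells in microwells and tags each captured mRNA with a UMI. There was 1 library of WT embryos and 1 library of Bmx-CreER Wls embryos, called the mutant library here. In the latter, the Bmx promoter drives a tamoxifen-dependent Cre recombinase in arterial endothelial cells, where it deletes floxed Wls, the carrier protein that cells need to secrete Wnt ligands, and tamoxifen was given to the pregnant dams. The litter of the WT embryos and whether their dams had tamoxifen are not named. The WT library held 22708005 UMIs from 5998 barcodes, and the mutant library held 24704991 UMIs from 6825 barcodes. After filtering, 5736 WT cells with a median of 3128 UMIs and 6620 mutant cells with a median of 3067 UMIs were kept, of which 48 barcodes occurred in both libraries. The 10 SLRPs accounted for 106144 UMIs, or 0.477% of the total, in WT and for 153475 UMIs, or 0.629%, in the mutant library.

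Wls itself was lower in the mutant library. Levels are given in CPM, the number of a gene's UMIs in every 1000000 UMIs that the cells in question held, with a 95% interval in parentheses that covers counting error only. In endothelial-like cells Wls was at 42.0 (33.5 to 52.0) CPM in WT and 23.0 (16.6 to 31.1) CPM in the mutant library. In the endothelial cluster led by the arterial genes Gja5 and Stmn2, it had 10 UMIs in 76 WT cells and 3 UMIs in 67 mutant cells, a ratio of 0.264 (0.0466 to 1.02) whose interval reaches 1. Outside that cluster Wls was also lower in the endothelial cluster led by Cd36 and Fabp4, where Bmx had 3 and 4 UMIs. It had 47 WT and 26 mutant UMIs there, a ratio of 0.582 (0.346 to 0.958). In the cluster led by Stab1 it had 27 and 13 UMIs, a ratio of 0.658 (0.311 to 1.32) that was not apart from 1. By the Cd36/Fabp4 cluster, the lower endothelial Wls was thus not confined to the cluster with the most Bmx. Bmx, the gene whose promoter drives Cre, was at 118 (78.7 to 169) CPM in that cluster in WT and at 249 (194 to 315) CPM in the mutant library. Across all cells Wls was at 135 (130 to 140) CPM in WT and 112 (108 to 117) CPM in the mutant library. A tag that lies outside the deleted part of Wls checks nothing, and the counts do not show which part of the transcript was tagged. Each genotype is 1 library, so no difference between the libraries has a replicate check.

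Clustering of both libraries together, with the SLRPs left out of the genes used, gave 22 clusters, of which 15 were named from marker lists into 11 classes and 7 were not named. The classes held 77.2% of WT cells and 79.6% of mutant cells. Fibroblast-like and bone-forming classes were BMSC-like cells (615 WT and 250 mutant cells), tendon-like cells (69 and 101), mural-like cells (127 and 121) and osteoblast-like cells (325 and 177). Cartilage classes were superficial (701 and 1563), reserve (372 and 886), chondrocyte-like (716 and 958) and hypertrophic chondrocyte-like cells (407 and 410). The others were endothelial-like (589 and 465), HSPC-like (339 and 230) and osteoclast-like cells (169 and 108). The HSPC-like cluster had 2 of its own markers, Mpo and Gata2, among its 10 leading genes, beside mast cell and basophil genes (Cpa3 and Hdc), Prg2 and the neutrophil granule genes Prtn3 and Ctsg. Every marker of a class had UMIs in that class in both libraries. The summed markers were highest in their own class with 1 exception, the reserve list (Ucma, Sfrp5, Pthlh and Scrg1), which in the mutant library was at 2751 CPM in reserve chondrocyte-like cells and 2808 CPM in chondrocyte-like cells. The tendon list (Scx, Tnmd, Mkx, Thbs4 and Chodl) was close to its level in an unnamed cluster led by Thbs4 and Ptn in WT, at 963 and 959 CPM, and apart from it in the mutant library, at 4442 and 1025 CPM. That cluster of 369 WT and 382 mutant cells is called the Thbs4/Ptn cluster.

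Each SLRP had its highest level among the named classes in the same class in both libraries, for 10 of 10 members. Dcn and Lum were highest in BMSC-like cells, and Aspn, Ogn, Kera and Omd in tendon-like cells. Fmod, Bgn and Prelp were highest in superficial chondrocyte-like cells and Epyc in chondrocyte-like cells, so the family divides into fibroblast, tendon and cartilage patterns that do not follow the sequence classes. With the classes put in order of level for each gene, neighbours were apart beyond the interval of their ratio in 55 of 100 pairs in WT and 57 of 100 in the mutant library. With the coarser resolution of 0.5, where no cluster was named tendon-like, 5 of 10 members in WT and 4 in the mutant library kept the highest class given here. With the libraries clustered apart, which gave no tendon-like class in WT, 5 kept it in WT and all but Dcn and Lum in the mutant library. Fmod and Epyc kept it in both libraries under each of 8 alternatives, and each of the others lost it under at least 1 in 1 or both libraries. Omd kept it in 4 of 8 in each library, and its highest class was osteoblast-like in WT and hypertrophic in the mutant library with 30 principal components and hypertrophic with the top 5% of cells by doublet score left out. Aspn moved to BMSC-like cells with those doublet scores left out, and Lum in the mutant library to chondrocyte-like cells in 5 of 8.

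**Figure D1:**
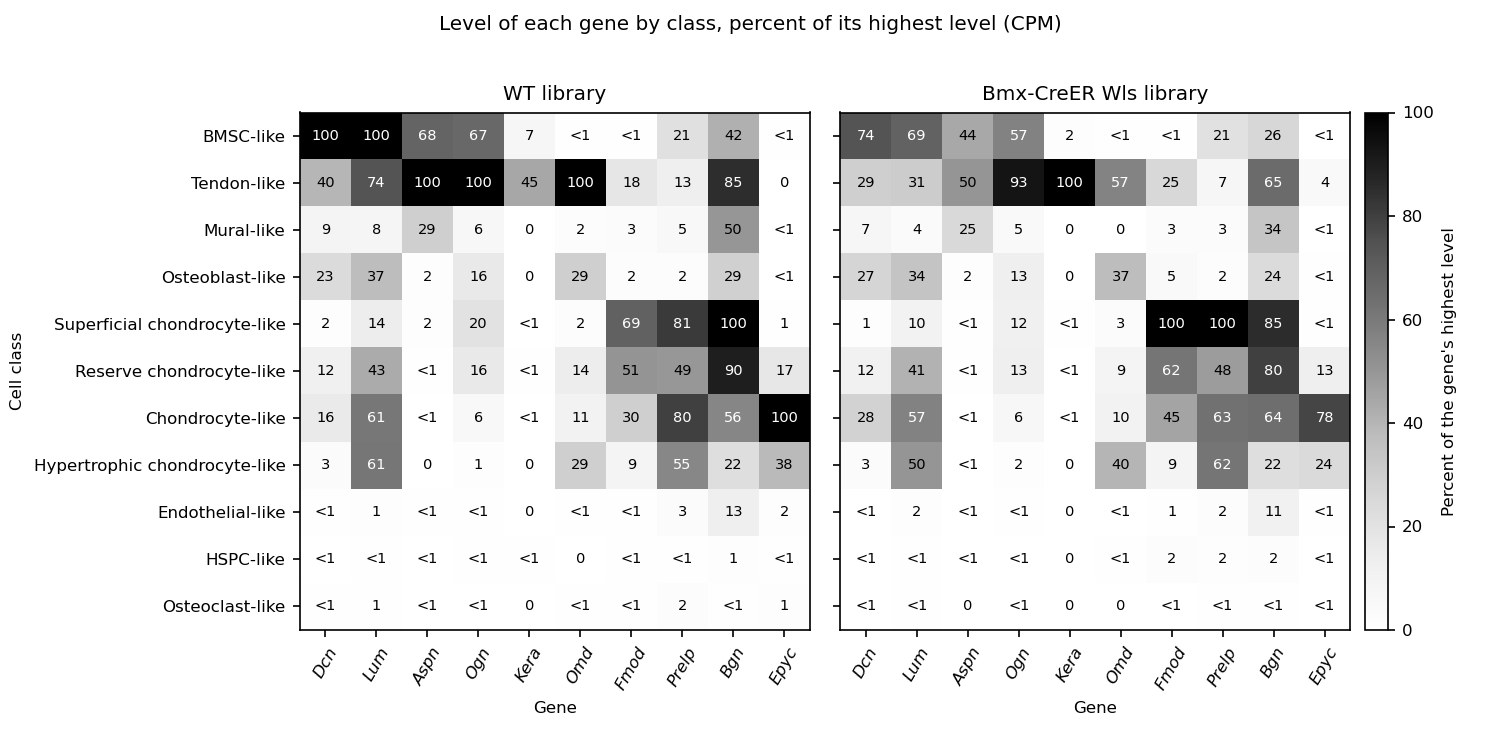
Level of each SLRP in each named class, with a heat map for each library, as a percent of the highest CPM that the gene reached in any named class of either library. Aspn reached its highest level in WT tendon-like cells, Kera in mutant tendon-like cells, Fmod in mutant superficial chondrocyte-like cells and Epyc in WT chondrocyte-like cells.

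Most SLRP genes sit in short arrays, which are given here because neighbours in them had both like and unlike patterns. In GRCm38 (mm10), Dcn (chr10:97479609-97518143), Lum (chr10:97565128-97572703), Kera (chr10:97606879-97613692) and Epyc (chr10:97644068-97682454) follow each other on the plus strand of chromosome 10 with 0 other coding genes between them and gaps of 46984, 34175 and 30375 bases. Aspn (chr13:49544443-49567565), Omd (chr13:49582462-49592822) and Ogn (chr13:49608046-49624501) do so on the plus strand of chromosome 13, after the related gene Ecm2, with gaps of 14896 and 15223 bases. Prelp (chr1:133910304-133921414, minus strand) and Fmod (chr1:134037254-134048277, plus strand) lie 115839 bases apart on chromosome 1, and Bgn (chrX:73483602-73495933, plus strand) is on the X chromosome. The highest levels of the chromosome 13 genes as reported were in tendon-like cells, although each of them lost that place under some alternatives. The 250 bases before the start are shown for these genes and for Fmod, the member with the largest ratio between the libraries. They are from RefSeq, build GRCm38.p6, in which 8 of the 10 members were matched: chr13:49544193-49544442 for Aspn, chr13:49582212-49582461 for Omd, chr13:49607765-49608014 for Ogn and chr1:134037004-134037253 for Fmod, each on the plus strand and wholly before the annotated gene. Capitals mark matches on either strand, which may overlap, to TATAAA for the TATA box, ACAAAG for the core of Sox sites, TGNGGT for the core of Runx sites and CANNTG for the E-box. Of 32851 promoters of the same length, 12.4% held TATAAA, 16.5% ACAAAG, 40.1% TGNGGT and 66.2% CANNTG.
Aspn: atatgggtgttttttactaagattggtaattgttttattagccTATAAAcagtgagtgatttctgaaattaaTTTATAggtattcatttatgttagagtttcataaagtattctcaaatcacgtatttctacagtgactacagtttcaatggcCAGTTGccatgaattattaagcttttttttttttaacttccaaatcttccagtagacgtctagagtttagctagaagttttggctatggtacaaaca
Omd: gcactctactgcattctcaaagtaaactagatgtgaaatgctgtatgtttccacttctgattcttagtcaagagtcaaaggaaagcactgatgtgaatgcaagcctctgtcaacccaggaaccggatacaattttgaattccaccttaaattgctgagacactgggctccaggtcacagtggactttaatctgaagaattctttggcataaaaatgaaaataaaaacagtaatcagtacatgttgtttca
Ogn: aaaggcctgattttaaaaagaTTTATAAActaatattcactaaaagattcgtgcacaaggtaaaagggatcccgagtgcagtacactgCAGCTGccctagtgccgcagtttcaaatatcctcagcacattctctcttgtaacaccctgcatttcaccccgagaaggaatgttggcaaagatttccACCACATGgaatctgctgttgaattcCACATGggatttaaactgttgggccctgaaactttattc
Fmod: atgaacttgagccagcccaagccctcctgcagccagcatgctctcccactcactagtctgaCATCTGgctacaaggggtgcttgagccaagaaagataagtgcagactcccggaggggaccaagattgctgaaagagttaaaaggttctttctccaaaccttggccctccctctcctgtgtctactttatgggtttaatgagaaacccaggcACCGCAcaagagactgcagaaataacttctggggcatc

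The Aspn window held 2 matches to TATAAA and 1 to CANNTG, and the Ogn window 2 to TATAAA, 1 to TGNGGT and 3 to CANNTG. The Omd window, between them, held none of the 4 motifs, and the Fmod window held 1 match to TGNGGT and 1 to CANNTG. A match is a description of the letters, not a site.

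Among class I members, Dcn (decorin), which carries a single chondroitin or dermatan sulphate chain and limits the sideways growth of collagen fibrils, was highest in BMSC-like cells with the clustering used here. It was at 1776 (1723 to 1831) CPM in WT and 1317 (1247 to 1389) CPM in the mutant library there, 2.53 (2.15 to 2.99) times its level in tendon-like cells in WT and 2.53 (2.17 to 2.98) times in the mutant library. Tendon-like cells had 703 (596 to 825) CPM in WT and 519.5 (447 to 601) CPM in the mutant library. In WT, osteoblast-like cells (416 CPM, 385 to 450.1) came next and were apart from chondrocyte-like cells (276 CPM, 255 to 297). In the mutant library, tendon-like, chondrocyte-like (493 CPM, 469 to 518) and osteoblast-like cells (476 CPM, 434 to 521) were neighbours that did not differ beyond their intervals. Reserve chondrocyte-like cells had 219 and 206 CPM and mural-like cells 162 and 132 CPM in WT and mutant. The mutant BMSC-like level depended on the clustering: it was 733 CPM at resolution 0.5, 832 CPM with a stricter cell filter, 778 CPM with 30 principal components, where osteoblast-like cells were highest (811 CPM), and 563 CPM with the libraries clustered apart, where chondrocyte-like cells were (579 CPM). Dcn was at or below 56.0 CPM in the other classes and reached 8.01 and 6.02 CPM in endothelial-like cells, where it was close to the 4.97 and 5.59 CPM of HSPC-like cells.

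Bgn (biglycan), which resembles Dcn but carries a pair of chains and has a known part in bone formation, was the most evenly spread member. It was highest in superficial chondrocyte-like cells, at 3553 (3462 to 3645) CPM in WT and 3035 (2983 to 3087) CPM in the mutant library, and nearly as high in reserve chondrocyte-like cells, at 3185 and 2837 CPM. Tendon-like cells followed with 3017 (2790.1 to 3258) CPM in WT and 2321 (2164 to 2486) CPM in the mutant library, not apart from reserve chondrocyte-like cells in WT (ratio 1.06, 0.969 to 1.15) nor from chondrocyte-like cells in the mutant library (1.02, 0.945 to 1.09). Chondrocyte-like cells had 1982 and 2282 CPM, mural-like cells 1774 and 1204 CPM, BMSC-like cells 1484 and 918 CPM, osteoblast-like cells 1016 and 836 CPM and hypertrophic chondrocyte-like cells 787 and 790.0 CPM. Endothelial-like cells had 460.4 (431 to 491) CPM in WT and 389 (361 to 418) CPM in the mutant library, against 43.4 (35.1 to 53.0) and 80.8 (67.5 to 95.9) CPM in HSPC-like cells, so the endothelial level was above the blood level in each library. A Bgn UMI was found in 4488 WT and 5568 mutant cells, more cells than for any other member.

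Aspn (asporin), which has a run of aspartates and no sugar chains and binds collagen and calcium, was the fibroblast and tendon member with almost no cartilage level. Tendon-like cells had 3378 (3138 to 3632) CPM in WT and 1689.8 (1556 to 1832) CPM in the mutant library, and BMSC-like cells 2293 (2233 to 2355) CPM in WT and 1479 (1405 to 1556) CPM in the mutant library. Mural-like cells, the contractile cells around vessels, came next with 984 (890.1 to 1086) CPM in WT and 837 (755 to 924) CPM in the mutant library, which was 15.1 (12.2 to 18.9) times the next class in WT. In the cartilage classes Aspn lay between 0 UMIs in WT hypertrophic chondrocyte-like cells, which allows up to 1.12 CPM, and 65.2 (53.4 to 78.8) CPM in WT superficial chondrocyte-like cells. Osteoblast-like cells had 59.2 and 59.5 CPM. The Thbs4/Ptn cluster, unnamed, had 1286 CPM in WT and 738 CPM in the mutant library. Aspn thus separated stromal from cartilage classes more sharply than Dcn did. Its tendon-like level depended on the cells in the class: it was 1233 and 763 CPM when the top 5% of cells by doublet score were left out, and 1749 CPM in WT with 30 principal components, and BMSC-like cells were then the highest. Without the top doublet scores a wider group of 271 WT and 358 mutant cells took the tendon-like name, against 69 and 101 as reported. With 30 principal components the class held 85 WT cells.

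Among class II members, Fmod (fibromodulin), a keratan sulphate proteoglycan that guides collagen cross-linking in tendon and cartilage, was a cartilage gene with its peak in the superficial class. Superficial chondrocyte-like cells had 5191 (5082 to 5302) CPM in WT and 7543 (7462 to 7626) CPM in the mutant library, and reserve chondrocyte-like cells 3813 (3682 to 3946) CPM in WT and 4654 (4564 to 4746) CPM in the mutant library. Chondrocyte-like cells had 2228 (2169 to 2288) CPM in WT and 3424 (3359.5 to 3488) CPM in the mutant library, and tendon-like cells 1342 (1192 to 1506) CPM in WT and 1901 (1759 to 2051) CPM in the mutant library. These 4 classes were apart from each other in that order in both libraries. Hypertrophic chondrocyte-like cells had 686 and 664 CPM, mural-like cells 231 and 257 CPM, osteoblast-like cells 188 and 356 CPM and BMSC-like cells 48.0 and 40.6 CPM, so the class with the most Dcn had little Fmod. Among the unnamed clusters, one led by Stc1 and Cilp had 2698 and 2986 CPM and one led by Stc1 and Bpifb1 2649 and 4018 CPM.

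Lum (lumican), a keratan sulphate proteoglycan that keeps fibrils thin and orderly in the cornea, was spread over stroma and cartilage. BMSC-like cells had 669 (636 to 703) CPM in WT and 459.7 (419 to 503) CPM in the mutant library, and tendon-like cells 495 (406 to 598) CPM in WT and 206 (161 to 259) CPM in the mutant library. In WT, tendon-like, hypertrophic (408 CPM, 384 to 433) and chondrocyte-like cells (407 CPM, 382 to 433) were neighbours that did not differ beyond their intervals. In the mutant library chondrocyte-like cells (380.1 CPM, 359 to 402) came next after BMSC-like cells, with hypertrophic chondrocyte-like cells at 337 (316 to 359) CPM. The mutant BMSC-like level was lower under 5 of 8 alternatives, where chondrocyte-like cells were the highest: it was 293 CPM at resolution 0.5 and 232 CPM with the libraries clustered apart, against 397 and 408 CPM in chondrocyte-like cells. Osteoblast-like cells had 249 and 228 CPM, reserve chondrocyte-like cells 288 and 273 CPM and superficial chondrocyte-like cells 93.2 and 69.6 CPM, so Lum was low where Fmod was highest. Endothelial-like cells had 10.01 and 11.5 CPM.

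Prelp, a member with few or no chains and a basic end that binds heparan sulphate, was the other widespread cartilage gene of class II. Superficial chondrocyte-like cells had 1138 (1087 to 1191) CPM in WT and 1399 (1364 to 1435) CPM in the mutant library. In WT they were not apart from chondrocyte-like cells, at 1119.9 (1078 to 1163) CPM (ratio 1.02, 0.958 to 1.08), whereas in the mutant library chondrocyte-like cells had 880.2 (848 to 913) CPM and the ratio was 1.59 (1.52 to 1.66). Hypertrophic chondrocyte-like cells had 775 (742 to 809) CPM in WT and 862 (828 to 897) CPM in the mutant library, not apart from chondrocyte-like cells in the mutant library, and reserve chondrocyte-like cells 691 and 667 CPM. Outside cartilage, Prelp was at 296 and 288 CPM in BMSC-like cells and 176 and 99.9 CPM in tendon-like cells, and was at 71.4 CPM or lower in every other named class. Prelp and Fmod therefore shared their highest class but not the order below it.

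Kera (keratocan), best known from the corneal stroma, was the rarest member, with UMIs in 70 WT and 77 mutant cells. Tendon-like cells had 129.6 (86.1 to 187) CPM in WT from 28 UMIs in 4 cells, and 291 (237 to 353) CPM in the mutant library from 102 UMIs in 29 cells. BMSC-like cells had 20.8 (15.4 to 27.5) and 4.95 (1.61 to 11.6) CPM, from 49 and 5 UMIs, and the tendon-like level was 6.23 (3.77 to 10.1) times theirs in WT and 58.8 (24.4 to 185) times in the mutant library. The Thbs4/Ptn cluster held 110 WT UMIs, at 111 (90.9 to 133) CPM, and 120 mutant UMIs, at 104 (85.9 to 124) CPM. No UMI of Kera was seen in mural-like, osteoblast-like, hypertrophic chondrocyte-like, endothelial-like or osteoclast-like cells of either library, which allows up to 7.38 CPM in the class with the fewest UMIs among these, WT mural-like cells. Kera was thus found mostly in tendon-like, Thbs4/Ptn and BMSC-like cells, a narrower range than that of its neighbours on chromosome 10. The WT tendon-like level rests on few cells, and 18 of its 28 UMIs came from the same cell. It was 496 CPM with 30 principal components, 263 CPM with a stricter cell filter and 75.5 CPM as a mean over cells. The mean over cells lies below the interval of 86.1 to 187 CPM. The intervals of the WT level and of its ratio to BMSC-like cells cover counting of UMIs and not the spread between cells.

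Omd (osteoadherin), a keratan sulphate proteoglycan of mineralising bone that binds cells through integrins, was low and had an unusual pair of sites. Tendon-like cells had 222 (164 to 295) CPM in WT and 126 (91.3 to 169) CPM in the mutant library, from 48 and 44 UMIs. Hypertrophic chondrocyte-like cells had 64.6 (55.3 to 74.9) CPM in WT and 89.0 (78.3 to 101) CPM in the mutant library, and osteoblast-like cells 64.5 (52.3 to 78.6) CPM in WT and 83.1 (66.0 to 103) CPM in the mutant library, and these classes were not apart in either library. The tendon-like level was 3.44 (2.44 to 4.76) times the hypertrophic level in WT and 1.41 (1.0003 to 1.95) times in the mutant library. Within the class, cells with a Tnmd UMI had 62.7 CPM in WT and 55.9 CPM in the mutant library. Cells without a Tnmd UMI had 392 and 353 CPM, so these carried the higher level. Of the 69 WT tendon-like cells, 50 are listed by the authors as eBMSC-1, 10 as mitotic BMSCs and 9 as osteolineage cells (OLCs-1). The WT tendon-like cells are thus all stromal cells in the authors' list. BMSC-like cells had 4 UMIs in WT and 1 in the mutant library, so Omd was scarce in these cells, where its neighbours Aspn and Ogn were abundant. The tendon-like level depended on which cells the class held: it was 3.82 and 3.71 CPM with 30 principal components and 3.01 and 1.92 CPM when the top 5% of cells by doublet score were left out. The class held 69 WT and 101 mutant cells as reported. It held 85 and 157 with 30 principal components and 271 and 358 without the top doublet scores. The part of doublets in the level was thus not tested apart from that of class make-up.

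Among class III members, Ogn (mimecan), a small fibril-associated protein of bone and connective tissue, was high in tendon-like and BMSC-like cells, as Aspn was, and extended into cartilage. Tendon-like cells had 2453 (2248 to 2671) CPM in WT and 2275 (2119.8 to 2439) CPM in the mutant library, and BMSC-like cells 1634 (1583 to 1687) CPM in WT and 1394 (1322 to 1469) CPM in the mutant library. The Thbs4/Ptn cluster had 1522 and 1198 CPM. Superficial chondrocyte-like cells came next in WT with 482 (449 to 517) CPM, followed by reserve chondrocyte-like (395 CPM) and osteoblast-like cells (395 CPM), which were not apart. In the mutant library these classes had 289.8, 317 and 313 CPM. Chondrocyte-like cells had 141 and 152 CPM, mural-like cells 148 and 119 CPM and hypertrophic chondrocyte-like cells 36.6 and 39.9 CPM, and endothelial-like, HSPC-like and osteoclast-like cells had 19.5 CPM or less. With the top 5% of cells by doublet score left out, the tendon-like levels were 1539 and 1389 CPM. The class then held 271 WT and 358 mutant cells, against 69 and 101 as reported.

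Epyc (epiphycan), a dermatan sulphate proteoglycan of epiphyseal cartilage, was the member most bound to cartilage, with 95.9% of its WT UMIs and 96.6% of its mutant UMIs in the 4 cartilage classes. Chondrocyte-like cells had 3712 (3636 to 3789) CPM in WT and 2905 (2846 to 2964) CPM in the mutant library, hypertrophic chondrocyte-like cells 1426 and 889 CPM and reserve chondrocyte-like cells 638 and 470.1 CPM, each apart from the next. Superficial chondrocyte-like cells had only 37.8 and 31.8 CPM, so the cartilage class with the most Fmod had the least Epyc. In tendon-like cells Epyc had 0 UMIs in WT, which allows up to 13.9 CPM, and 163 (123 to 211) CPM in the mutant library, from 57 UMIs in 7 of 101 cells. The chondrocyte marker list moved with it there: it was at 852 CPM in WT and 7190.3 CPM in the mutant library, with UMIs of 8 of 8 genes in each and most from Acan at 305 and Col2a1 at 4002. The part of such cells in the result was not tested. Endothelial-like cells had 65.1 and 27.4 CPM and HSPC-like cells 35.7 and 11.8 CPM. These UMIs were concentrated, with 81.5% and 74.0% of the endothelial ones and 88.6% and 84.2% of the HSPC-like ones from 5 cells, and WT cells that the authors list as endothelial held 1 Epyc UMI.

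Detection per cell is given for genes in a class where they were high, beside HSPC-like cells as a measure of each gene's background. In BMSC-like cells (medians of 3656 and 3774 UMIs), Aspn was seen in 95.1% of WT and 85.6% of mutant cells and Dcn in 88.6% and 78.4%. In HSPC-like cells (medians of 6258 and 6788 UMIs), which are blood cells and should lack both genes, the shares were 1.47% and 0.8696% for Aspn and 1.18% and 2.61% for Dcn. With each cell thinned to 1000 UMIs, which left out 1 WT and 0 mutant BMSC-like cells, Aspn was seen in 82.9% and 64.4% and Dcn in 69.7% and 54.0%. Most BMSC-like cells thus showed each gene, and the share was lower in the mutant library at equal depth. Fmod was seen in 98.3% of WT and 99.4% of mutant superficial chondrocyte-like cells (medians of 2188 and 2561 UMIs) against 6.49% and 10.4% of HSPC-like cells, and in 95.3% and 98.0% after thinning, with 16 and 35 cells left out. Epyc was seen in 94.3% and 83.9% of chondrocyte-like cells (medians of 3165 and 3134.5 UMIs), in 86.9% and 76.1% after thinning with 6 and 10 left out, and in 2.06% and 3.48% of HSPC-like cells. Each of these genes was thus seen in most cells of its class. By contrast, Kera was seen in 5.80% (1.602 to 14.2) of WT and 28.7% (20.1 to 38.6) of mutant tendon-like cells (medians of 2797 and 3306 UMIs), and Omd in 29.0% and 18.8%, against 0% and 0.435% for Omd and 0.295% and 0% for Kera in HSPC-like cells. After thinning, with 1 and 0 cells left out, the tendon-like shares were 5.88% and 14.9% for Kera and 11.8% and 10.9% for Omd. Both genes had few UMIs, so a tendon-like cell without a UMI of either may still express it.

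The number of SLRPs found in a cell thinned to 1000 UMIs had a median of 4 in tendon-like and chondrocyte-like cells in both libraries and of 0 in endothelial-like cells. It was 4 in WT and 3 in mutant BMSC-like cells, where 53.4% and 34.4% of cells held at least 4. No member was found in 93.5% of WT and 92.5% of mutant HSPC-like cells. The UMIs of some members were concentrated in few cells: the 5% of cells with the most UMIs of a gene held 52.4% of the Aspn UMIs in WT and 72.8% in the mutant library, and 55.5% and 60.2% for Dcn. For Bgn they held 19.1% and 18.2%, so Bgn was the most evenly shared, and for Fmod 29.7% and 22.1%.

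Across all cells, the mutant library held far more Fmod and far less Aspn than WT. Genes were compared where the libraries together held 200 UMIs or more. Past a fold of at least 1.5, upward or downward, were 2 of 10 members, against 8.12% of all genes tested. Fmod was at 1071 (1058 to 1085) CPM in WT and 2656 (2635 to 2676) CPM in the mutant library, a ratio of 2.48 (2.44 to 2.52), and Aspn at 376 (368 to 384) CPM in WT and 159 (154 to 164) CPM in the mutant library, a ratio of 0.422 (0.406 to 0.439). These 2 differences stood well apart from 1 in opposite directions. The median log2 ratio of all genes tested was -0.09. Prelp (1.4995, 1.46 to 1.54) and Dcn (0.668, 0.644 to 0.694) were just inside the fold, and Prelp was past it in 1 and Dcn in 4 of 9 alternatives, with ranges of 1.47 to 1.58 and 0.650 to 0.704. Bgn was at 1307 and 1577 CPM (1.21), Omd at 19.2 and 22.1 CPM (1.15) and Kera at 8.76 and 9.76 CPM, a ratio of 1.11 (0.918 to 1.35) that was not apart from 1. Lum (226 and 176 CPM), Ogn (396 and 297 CPM) and Epyc (632 and 548 CPM) were lower in the mutant library, with ratios of 0.779, 0.750 and 0.867.

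**Figure D2:**
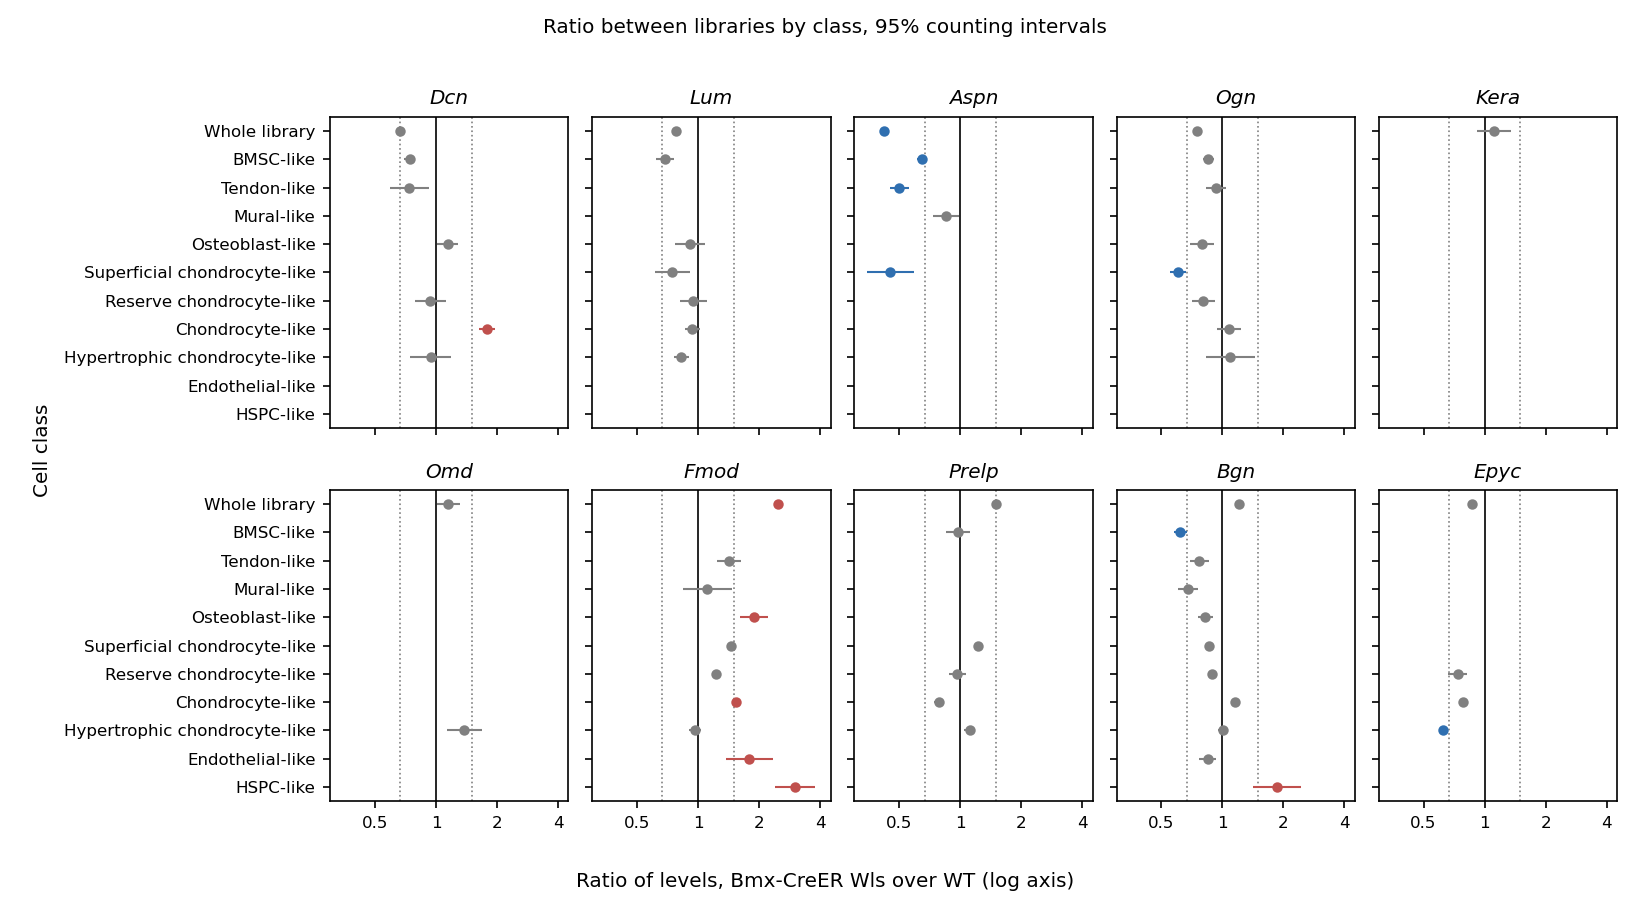
Ratio of CPM, Bmx-CreER Wls over WT (log axis), of each SLRP in the whole library and in each class where it had at least 200 UMIs, with 95% conditional binomial intervals; dotted lines mark 1.5-fold, red points lie past it upward, blue points past it downward and grey points inside it. In the whole library Fmod lay at 2.48 and Aspn at 0.422.

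The make-up of the libraries differed as well. The 4 cartilage classes gave 34.2% of all WT UMIs and 51.3% of all mutant UMIs, and the BMSC-like, tendon-like, mural-like and osteoblast-like classes 20.2% and 11.5%. Where a gene's UMIs lay shifted with this: cartilage classes held 16.1% of the Dcn UMIs in WT and 47.0% in the mutant library, while the share in the stromal and osteoblast classes was 75.9% and 42.0%. For Ogn the cartilage share was 17.8% and 35.1%, for Lum 49.3% and 71.2%, and for Fmod 79.8% and 85.6%. Aspn kept 79.2% and 65.4% of its UMIs in the stromal and osteoblast classes. Kera had 56.9% and 51.3% in unnamed clusters, nearly all of it in the Thbs4/Ptn cluster. Endothelial and blood classes held at most 3.64% of any member's UMIs.

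**Figure D3:**
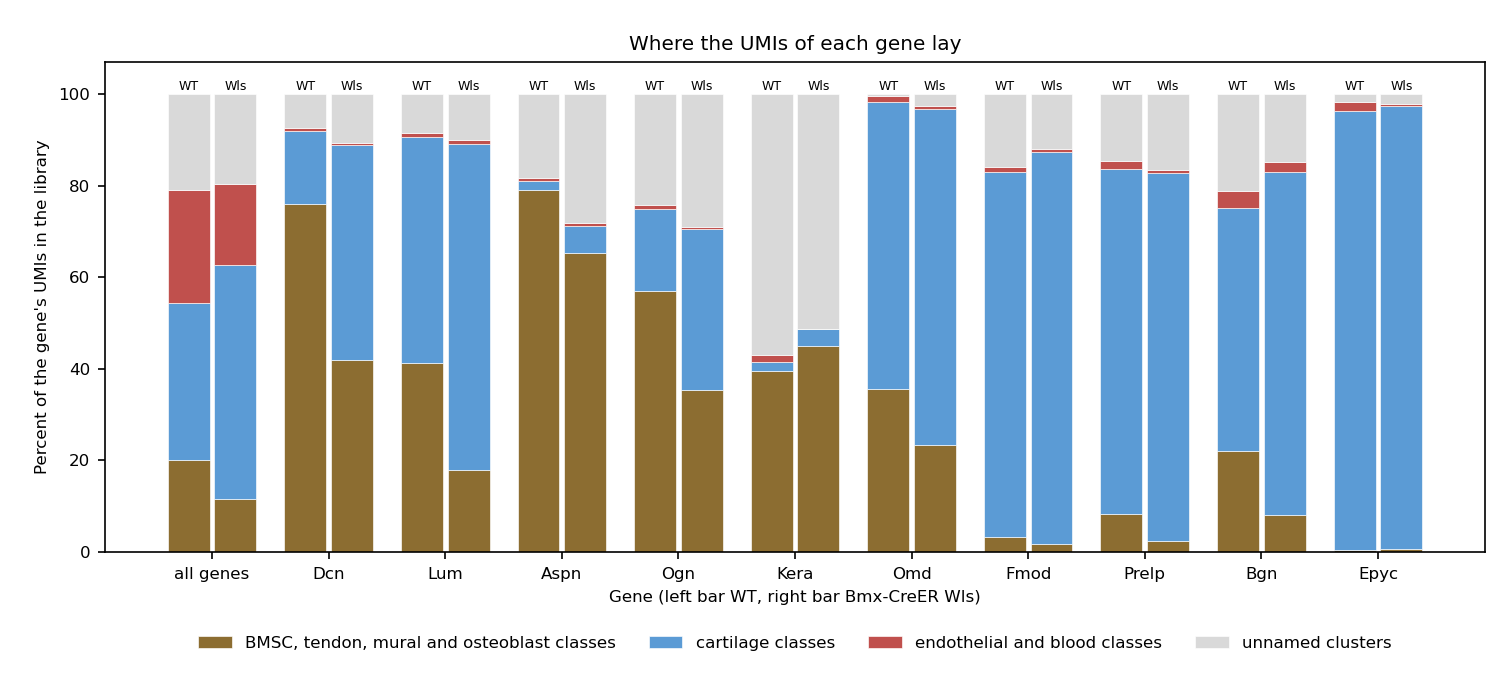
Share of each SLRP's UMIs (percent, stacked bars) that lay in cartilage classes, in stromal and osteoblast classes, in endothelial and blood classes and in unnamed clusters; the left bar of each pair is WT and the right bar Bmx-CreER Wls. The cartilage share of Dcn was 16.1% in WT and 47.0% in Bmx-CreER Wls.

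Fixing one part at a time shows how much each part would give by itself, as arithmetic over the 22 clusters and not as a cause. With the WT level of each cluster and the mutant share of UMIs, Dcn would have a ratio of 0.649, and with the mutant levels and the WT shares 0.921, so the whole-library ratio of Dcn was close to that of the mix. The value for levels sums clusters that went opposite ways, with ratios of 0.741 in BMSC-like cells and 1.93 and 2.15 in the chondrocyte-like clusters. It thus does not show that levels were alike. For Prelp these ratios were 1.40 and 1.02. For Fmod they were 1.78 and 1.38, and for Aspn 0.676 and 0.642, so both parts went the same way in these genes. For Epyc (1.12 and 0.786) and Bgn (1.36 and 0.863), the parts went opposite ways. For Lum they were 0.919 and 0.812, for Ogn 0.917 and 0.840, and for Omd 1.06 and 1.16. For Kera they were 0.956 and 0.939, both below 1, while the observed ratio was above 1 and not apart from it, so neither part by itself gives its direction.

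**Figure D4:**
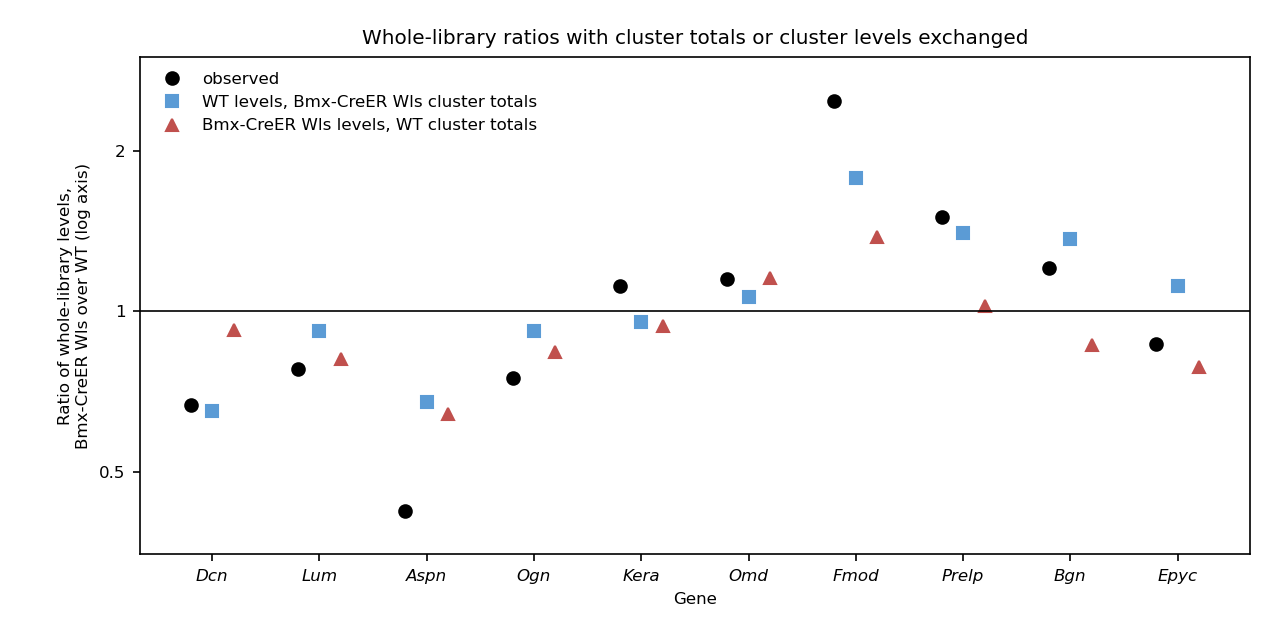
Ratio Bmx-CreER Wls over WT of each SLRP in the whole library as observed, with WT cluster levels and the mutant share of UMIs per cluster, and with mutant cluster levels and the WT shares. For Dcn the observed ratio of 0.668 lies near the mix value of 0.649, and for Fmod all 3 values lie above 1.

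Within BMSC-like cells, every SLRP tested was lower in the mutant library or near 1 with the clustering used here. Past the fold were 2 of 6 members, both lower, against 5.32% of all genes tested: Bgn with a ratio of 0.619 (0.575 to 0.666) and Aspn with 0.645 (0.609 to 0.683). Lum (0.687, 0.618 to 0.762), Dcn (0.741, 0.696 to 0.789) and Ogn (0.853, 0.802 to 0.907) were lower inside the fold and past it in 6, 5 and 1 of 10 alternatives, and Prelp had a ratio of 0.974. The median ratio of the 6 members was 0.714, beside 1.001 for all genes tested. The count and the members differed between clusterings: past the fold were 6 of 9 at resolution 0.5 (Fmod, Kera and Epyc higher, Dcn, Lum and Aspn lower) and 6 of 8 with 30 principal components (Fmod and Epyc higher, Dcn, Bgn, Lum and Aspn lower), against 5.92% and 6.15% of all genes tested in the same settings. The cause was not tested. With the libraries clustered apart Aspn had a ratio of 0.3604. Bgn ended inside the fold at resolution 0.5 (0.8198) and with the libraries clustered apart (0.803), as did Aspn by a small margin with the SLRPs kept among the variable genes (0.667). The BMSC list was at 25744 CPM in WT and 22397 CPM in the mutant library. UMIs of 6 of 6 genes were seen in each, most from Col3a1, at 21023 and 17331 CPM. The lower sum lay in Col3a1, since the summed rest of the list was not lower in the mutant library. The part of the list in the result was not tested. Dcn, Lum, Bgn, Ogn and Aspn were below 1 in BMSC-like cells under each of the 10 alternatives that gave a ratio. Settings that clustered anew did not hold the same cells, however. The class had 615 WT and 250 mutant cells as reported and 1007 and 696 at resolution 0.5. It had 991 and 619 with 30 principal components and 689 and 890 with the libraries clustered apart. Ratios in these settings thus compare sets of cells with another make-up. Equal weighting of clusters could not change the ratio, because the class is 1 cluster. TMM and the totals without haemoglobin and mitochondrial genes rescaled the same cells.

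In tendon-like cells, 1 of 5 members was past the fold, against 16.3% of all genes: Aspn, with a ratio of 0.5002 (0.448 to 0.558). Fmod was higher, at 1.42 (1.23 to 1.63), while Dcn (0.739) and Bgn (0.769) were lower and Ogn, at 0.928 (0.830 to 1.04), was not apart from 1. With 30 principal components the Aspn ratio was 0.744, inside the fold, and the Fmod ratio ranged from 0.976 to 1.62 over the alternatives, so its direction turned in 1 of 8, as did that of Dcn (up to 1.09). The tendon list was at 963 CPM in WT and 4442 CPM in the mutant library, with UMIs of 5 of 5 genes in each and most from Tnmd, at 717 and 2929, and the reserve chondrocyte list was at 32.4 CPM in WT (3 of 4 genes with a UMI, Scrg1 at 0) and 148 CPM in the mutant library (4 of 4), with most from Ucma, at 13.9 and 99.9. The chondrocyte list, which holds cartilage genes, moved too, from 852 CPM in WT to 7190.3 CPM in the mutant library. The part of these lists in the Fmod ratio and the others was not tested. In mural-like cells 0 of 3 members were past the fold, against 7.27% of all genes, with Bgn at 0.679 (0.607 to 0.759), Aspn at 0.8501 (0.737 to 0.9801) and Fmod at 1.11 (0.842 to 1.47), which was not apart from 1 but was past the fold in 2 of 9 alternatives. In osteoblast-like cells 1 of 5 was, against 3.76%: Fmod, with a ratio of 1.89 (1.61 to 2.22), which was 1.44 with the top 5% of cells by doublet score left out. Dcn had a ratio of 1.14 (1.01 to 1.29) there. In these cells the chondrocyte list was at 3888 CPM in WT and 5714 CPM in the mutant library, with UMIs of 8 of 8 genes in each and most from Col2a1, at 2596 and 3774, and the superficial list at 56.6 CPM in WT and 92.3 CPM in the mutant library, with UMIs of 4 of 4 genes in each and most from Abi3bp, at 43.4 and 48.2, and their part in the result was not tested. Among BMSC-like, tendon-like, mural-like and osteoblast-like cells, Fmod was thus above 1 beyond its interval in tendon-like and osteoblast-like cells and Aspn below 1 in the 3 classes where it could be compared, except that an alternative turned Fmod in tendon-like cells (to 0.976) and Aspn in mural-like cells (to 1.15).

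Fmod was higher in the mutant library in superficial, reserve and chondrocyte-like cells, but not in hypertrophic chondrocyte-like cells as reported, and the other members differed between the cartilage classes. In superficial chondrocyte-like cells, 2 of 6 members were past the fold, against 3.89% of all genes, both lower: Ogn (0.601, 0.550 to 0.658) and Aspn (0.452, 0.347 to 0.590). Aspn was under 200 UMIs there in each of the 6 settings that clustered or filtered the cells anew, so only 4 alternatives, which keep the same cells, gave it a ratio. Fmod (1.45, 1.42 to 1.49) and Prelp (1.23, 1.17 to 1.30) were higher inside the fold, and Bgn (0.854) and Lum (0.747) lower. Ogn was inside the fold in 5 of 10 alternatives, with 0.888 for 30 principal components as the value nearest to 1, while Fmod ranged from 1.42 to 2.02 and was past the fold in 5 of 10, and Prelp in 1. The class pooled 2 clusters, led by Wif1 and Itgbl1 (423 WT and 826 mutant cells) and by Prg4 and Cilp (278 and 737). The Ogn ratio was 0.597 in the former and 0.723, inside the fold, in the latter. The Fmod ratios were 1.34 and 1.54, the latter past the fold. The superficial list was at 6030.2 CPM in WT and 5015 CPM in the mutant library, with UMIs of 4 of 4 genes in each and most from Prg4, at 4849.9 and 4132. In reserve chondrocyte-like cells, 0 of 7 members were past the fold, against 3.93% of all genes, with Fmod at 1.22 (1.17 to 1.27), Ogn at 0.803 and Epyc at 0.737 (0.663 to 0.819). Chondrocyte-like cells had 2 of 7 past it, against 5.76%, both higher: Dcn (1.79, 1.64 to 1.96) and Fmod (1.54, 1.49 to 1.59). Epyc (0.783, 0.760 to 0.806) and Prelp (0.786, 0.745 to 0.829) were lower, so the class's own SLRP and the stromal one went opposite ways. Dcn was past the fold under each of 10 alternatives, from 1.57 to 2.90, and Fmod under 8, with 1.49 at resolution 0.5 and 1.47 as a mean over cells.

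The chondrocyte-like class consisted of 2 clusters, 1 of them led by the immediate-early genes Socs3, Jun and Fosb, which held 119 of 716 WT cells and 295 of 958 mutant cells. Dcn was higher in the mutant library in both: 306 to 589.8 CPM in the larger cluster, a ratio of 1.93 (1.75 to 2.13), and 142 to 305 CPM in the Socs3/Jun cluster, a ratio of 2.15 (1.64 to 2.86). The Epyc ratio was 0.891 (0.863 to 0.920) in the larger cluster and 0.662 (0.613 to 0.714) in the other. In chondrocyte-like cells the BMSC list was at 971 CPM in WT (6 of 6 genes with a UMI) and 1755 CPM in the mutant library (5 of 6, Clec3b at 0), with most from Col3a1, at 875 and 1606, so it moved with Dcn. The osteoblast list was at 165 CPM in WT (4 of 8 genes with a UMI, Bglap, Bglap2, Ifitm5, Dmp1 at 0) and 82.8 CPM in the mutant library (5 of 8, Bglap, Bglap2, Dmp1 at 0), with most from Runx2, at 131 and 64.2, the hypertrophic list at 192 CPM in WT and 110.5 CPM in the mutant library, with UMIs of 5 of 5 genes in each and most from Panx3 at 101 and Pth1r at 53.2, and the superficial list at 64.7 CPM in WT and 104 CPM in the mutant library, with UMIs of 4 of 4 genes in each and most from Gdf5, at 29.1 and 45.9. The part of these lists in the result was not tested. In hypertrophic chondrocyte-like cells, 1 of 8 members was past the fold, against 4.72% of all genes: Epyc, lower, with a ratio of 0.623 (0.592 to 0.655), which turned to 1.04 with the libraries clustered apart and was 0.669 with 30 principal components. Omd was higher inside the fold (1.38, 1.13 to 1.68), and Fmod (0.967) and Bgn (1.004) were near 1. Fmod there ranged from 0.887 to 2.33 over 10 alternatives, kept its direction in 5 and was past the fold in 1, with the libraries clustered apart, and Prelp (1.11, 1.05 to 1.18) ranged from 1.06 to 2.53 and was past it in 4 of 10. The BMSC list stood at 571 CPM in WT and 1119 CPM in the mutant library, with UMIs of 6 of 6 genes in each and most from Col3a1, at 560.2 and 1102, and its part in the result was not tested.

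The tendon-like cells were also divided by whether they held a UMI of Tnmd, the gene of a membrane protein of mature tendon cells, a split chosen after the values were seen. Cells with a Tnmd UMI numbered 30 in WT and 74 in the mutant library, and cells without one 39 and 27, so the mix within the class differed. Omd lay mainly in the cells without Tnmd, at 392 (281 to 532) CPM in WT and 353 (236 to 507) CPM in the mutant library, against 62.7 and 55.9 CPM in cells with it. The Omd ratio, from 92 UMIs and so under the minimum used elsewhere, was 0.565 (0.367 to 0.869) in the whole class, 0.891 (0.342 to 2.58) with Tnmd and 0.9003 (0.540 to 1.48) without it. Kera went the other way, at 224 (145 to 331) and 380.3 (310.1 to 462) CPM with Tnmd, from 3 and 29 cells, and 3 UMIs in WT and 0 in the mutant library without it. Aspn was lower in the mutant library in both kinds of cell: 2725 (2427 to 3049) and 1518 (1374 to 1672) CPM with Tnmd, 4075 (3698 to 4481) and 2253 (1939.9 to 2602) CPM without. The cells with Tnmd also differed in other ways between the libraries. In WT and mutant, Tnmd was at 1389 and 3825 CPM, Scx at 8.96 and 231 CPM and Thbs4 at 188 and 1066 CPM. Col8a1 was at 1309 and 377 CPM and Epha3 at 538 and 194 CPM. Median UMIs were 3485 and 3436.5 with Tnmd and 2563 and 2656 without. The part of these differences in the Aspn levels was not tested. Ogn was at 2555 and 2330.3 CPM with Tnmd and at 2344 and 2094 CPM without, and Fmod at 1515 and 1954 CPM and 1158 and 1729 CPM. Among all cells with a Kera UMI, 37 of 70 in WT (52.9%, 40.6 to 64.9) and 50 of 77 in the mutant library (64.9%, 53.2 to 75.5) also had a Tnmd UMI. In the other cells of the tendon-like, Thbs4/Ptn and BMSC-like groups the share was 11.1% in each library (110 of 989 and 74 of 666), with medians of 3157 and 3175 UMIs beside 3418 and 3510 in the Kera cells. These sets differ in class make-up: of the Kera cells, 4 in WT and 29 in the mutant library were tendon-like and 26 and 5 BMSC-like, and some lay outside the 3 groups. The part of this in the shares was not tested.

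**Figure D5:**
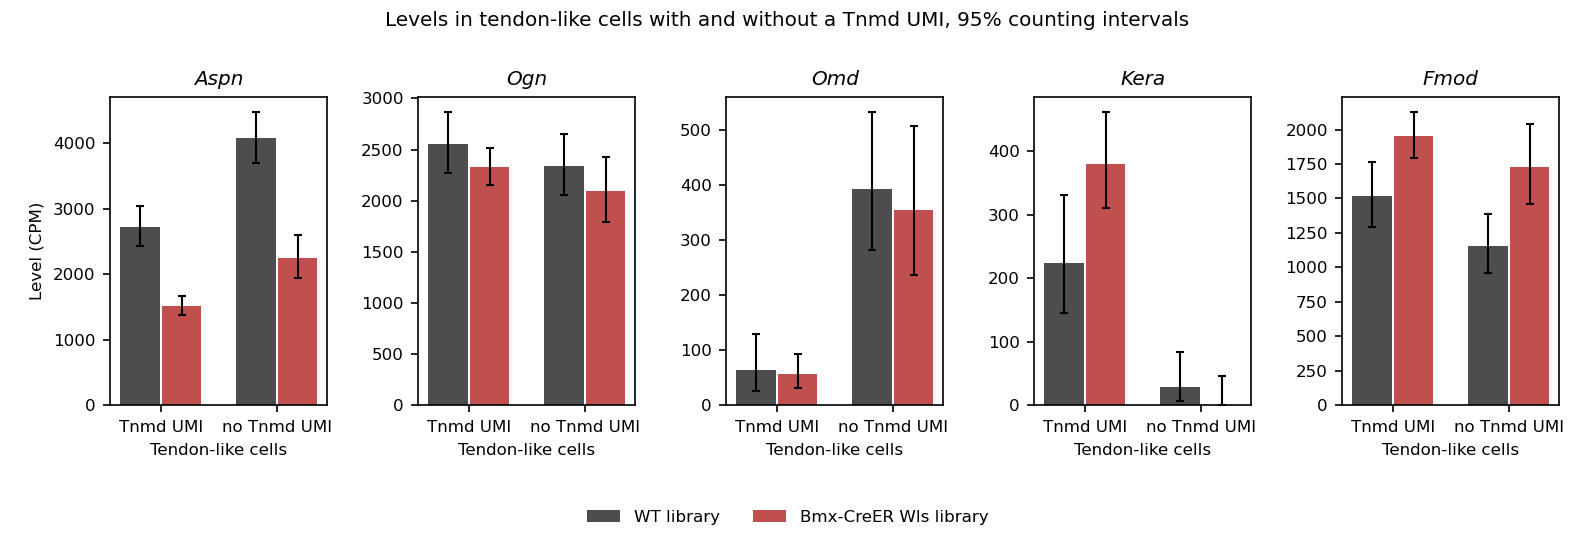
CPM with 95% Poisson intervals of Aspn, Ogn, Omd, Kera and Fmod in tendon-like cells with and without a Tnmd UMI, for WT and Bmx-CreER Wls. Omd lies higher without Tnmd (392 and 353 CPM) and Kera higher with Tnmd (224 and 380 CPM).

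In endothelial-like and blood cells SLRP levels were low, with Bgn in endothelial-like cells as the exception. Its endothelial level was 35.2% (33.0 to 37.6) of the whole-library level in WT and 24.6% (22.9 to 26.5) in the mutant library, against 3.32% (2.69 to 4.06) and 5.12% (4.28 to 6.08) in HSPC-like cells. A Bgn UMI was seen in 59.6% (55.5 to 63.6) of WT and 55.3% (50.6 to 59.9) of mutant endothelial-like cells (medians of 2969 and 3303 UMIs) and in 8.55% and 10.4% of HSPC-like cells (medians of 6258 and 6788). At 1000 UMIs a cell the endothelial shares were 32.9% and 26.8%, with 17 and 9 cells left out, and the HSPC-like shares 3.27% and 4.82%, with 3 and 2 left out. Endothelial Bgn was therefore spread over many cells and above the share of a class that should lack it. By cluster, Bgn was 735 to 502 CPM from WT to mutant in the cluster led by Stab1, a gene of sinusoidal endothelium (ratio 0.683, 0.574 to 0.810), 400.2 to 401 CPM in the cluster led by Cd36 and Fabp4 (1.003, 0.881 to 1.14), and 142 to 174 CPM in the Gja5/Stmn2 cluster. Past the fold in endothelial-like cells was 1 of 2 members, against 2.17% of all genes: Fmod, with a ratio of 1.79 (1.37 to 2.34), while Bgn was at 0.844 (0.764 to 0.932). By cluster, Fmod was 43.3 to 93.6 CPM from WT to mutant in the Cd36/Fabp4 cluster and 101 to 128 CPM in the Gja5/Stmn2 cluster, but 29.1 to 22.4 CPM in the Stab1 cluster, where it had 16 and 9 UMIs. With the top 5% of cells by doublet score left out, endothelial-like cells held 22 and 64 Fmod UMIs, under the minimum, so the call could not be made. Of the Fmod UMIs in the class, 49.5% in WT and 50% in the mutant library came from 5 cells, the ratio was 1.41 with the 3 clusters weighted equally, and the cells that the authors list as endothelial had 5.73 CPM in WT. Among the marker lists, the hypertrophic list in endothelial-like cells was at 84.6 CPM in WT and 42.7 CPM in the mutant library, with UMIs of 5 of 5 genes in each and most from Panx3 at 29.5 and Col10a1 at 33.4, and its part in the result was not tested.

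In HSPC-like cells 2 of 2 members tested were past the fold, against 3.10% of all genes, both higher in the mutant library with the cells used here. Fmod was at 51.5 (42.5 to 61.9) CPM in WT and 154 (136 to 175) CPM in the mutant library, a ratio of 2.99 (2.39 to 3.77), and Bgn had a ratio of 1.86 (1.42 to 2.45). A large part of these UMIs came from few cells. In WT and mutant, 5 cells gave 48.2% and 63.3% of the Fmod UMIs, with at most 15 and 50 in a cell. For Bgn the share from 5 cells was 49.0% and 52.3%, and the rest lay in other cells. Fmod was more concentrated in the erythroid cluster led by Mt2 and Ermap, which is unnamed. Its mutant cells had 99 Fmod UMIs, 97.0% of them from 5 cells, and its WT cells 2. With the top 5% of cells by doublet score left out, 268 WT and 178 mutant HSPC-like cells held 14 and 63 Fmod UMIs and 13 and 17 Bgn UMIs, under the minimum, so neither call could be made. Fmod was at 4.81% (3.97 to 5.78) of its whole-library level in WT HSPC-like cells and at 5.80% (5.10 to 6.57) in mutant ones. Other lists moved with it in HSPC-like cells: the chondrocyte list was at 1609 CPM in WT and 2351 CPM in the mutant library, with UMIs of 8 of 8 genes in each and most from Col2a1, at 916 and 1533. The megakaryocyte list was at 75.03 CPM in WT and 259.8 CPM in the mutant library, with UMIs of 5 of 5 genes in each and most from Itga2b at 41.1 and Pf4 at 138, the neutrophil and monocyte list at 180.3 CPM in WT and 443 CPM in the mutant library, with UMIs of 6 of 6 genes in each and most from Elane, at 107 and 277, and the mast and basophil list at 654 CPM in WT and 989 CPM in the mutant library, with UMIs of 4 of 4 genes in each and most from Cpa3, at 414 and 723. The osteoblast list went the other way, at 155 CPM in WT (5 of 8 genes with a UMI, Bglap, Bglap2, Dmp1 at 0) and 81.4 CPM in the mutant library (5 of 8, Bglap, Bglap2, Dmp1 at 0), with most from Runx2, at 91.8 and 70.2, and the part of these lists in the result was not tested.

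For WT, barcodes with a class listed by the authors allow the same genes to be read in those classes. Listed eBMSC-1 cells numbered 940, with 54.5% in BMSC-like cells, 28.9% in the Thbs4/Ptn cluster and 5.32% in tendon-like cells. In them Aspn was at 2122 CPM, Ogn at 1753 CPM and Bgn at 1758 CPM. Listed eBMSC-2 cells (149, 100% in an unnamed cluster led by Hbegf and Clic5) had 1123 CPM of Bgn, 412 CPM of Prelp and 54.0 CPM of Aspn, a profile with little of the BMSC-like SLRPs. The osteolineage classes split: listed OLCs-1 (202) had 819 CPM of Ogn and 271 CPM of Aspn, against 69.2 and 11.5 CPM in listed OLCs-2 (102). Dcn (184 and 709 CPM), Lum (191 and 348 CPM) and Omd (61.8 and 95.6 CPM) were higher in OLCs-2, while Bgn was at 1025 and 1065 CPM. Osteoblast-like cells as a class pool cells of both lists, since 93.1% of OLCs-1 and 99.0% of OLCs-2 fell into it. For Aspn the split lay largely outside that class. Listed OLCs-1 held 197 Aspn UMIs, but all WT osteoblast-like cells held 90, and 9 listed OLCs-1 were tendon-like. How far the other differences lie within the class was not tested.

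Over 44 profiles, 1 for each cluster with at least 30 cells in each library, members were compared by the Pearson correlation of log2(CPM + 10). The profiles share cells' depth and library, and the same clusters enter from both libraries, so r is a description without a test. Dcn and Lum, neighbours on chromosome 10, had r = 0.88, while Dcn and Epyc in the same array had 0.38 and Kera and Epyc 0.02. Aspn and Ogn had r = 0.79 but Aspn and Omd, which lies between them, 0.21. Fmod and Prelp on chromosome 1 had 0.84, and Fmod and Aspn 0.08. Neighbours in an array were thus alike in some pairs and not in others. Among 11171 other genes, those most like each member were P4ha3 (0.883), Cdo1 (0.880), Shox2 (0.860) for Dcn, Leprel2 (0.945), Farp1 (0.933), Rcn3 (0.930) for Bgn and Adamts2 (0.906), Nfatc4 (0.903), Lgi2 (0.899) for Aspn. For class II they were Fgfrl1 (0.909), Sox9 (0.904), Acan (0.892) for Fmod, Pycr1 (0.926), Nrbp2 (0.920), Lepre1 (0.916) for Lum, Tnmd (0.894), Zfp185 (0.887), Prrx2 (0.832) for Kera, Dlx5 (0.931), Dlx6 (0.877), Rspo3 (0.874) for Omd and Il17d (0.927), Zcchc5 (0.924), Gfpt2 (0.918) for Prelp. For class III they were Bicc1 (0.947), Col1a2 (0.934), Thbs2 (0.919) for Ogn and Matn1 (0.964), Kctd4 (0.911), Pou3f3 (0.895) for Epyc.

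Other genes of SLRP biology were read as lists, with the same fold and minimum, in the 11 named classes. Of the other small leucine-rich repeat proteins, 6 of 8 had at least 200 UMIs, and 0 were past the fold in any class where they could be compared. At most 3 were tested in a class, and 2.17% to 5.76% of all genes were past the fold in these classes. A count of 0 is near that share. Chad, a chondrocyte-binding leucine-rich protein, was highest in hypertrophic chondrocyte-like cells (2139 and 2178 CPM in WT and mutant), and Ecm2, next to Aspn, in superficial chondrocyte-like cells (310.2 and 265 CPM). Of the enzymes that build the linker between core protein and chain, 5 of 6 reached the minimum and 0 were past the fold. Here too at most 3 were tested in a class, against 2.17% to 5.76% of all genes, so 0 is near that share. Fam20b was at 328 and 336 CPM in hypertrophic chondrocyte-like cells and B4galt7 at 79.4 and 69.5 CPM in chondrocyte-like cells. Of the chondroitin and dermatan sulphate enzymes, 13 of 16 reached it. Chpf was higher in superficial chondrocyte-like cells (1 of 10 tested, against 3.89% of all genes), and Csgalnact2 lower in HSPC-like cells (1 of 2, against 3.10%), at 229.6 and 145 CPM. Chst11, the main chondroitin sulphotransferase of cartilage, was at 861 and 623 CPM in chondrocyte-like cells, and Dse, which makes dermatan sulphate, at 245 and 191 CPM in tendon-like cells. Keratan sulphate enzymes (5 of 7) and genes of sulphate supply (4 of 4) had 0 past the fold. At most 4 of either list were tested in a class, against 2.17% to 5.76% of all genes, so 0 is near that share. B4galt1 was at 223 and 190.2 CPM in BMSC-like cells and Chst2 at 143 and 107 CPM in endothelial-like cells. The sulphate carrier Slc26a2 was at 1149 and 879 CPM and Papss2 at 849.6 and 644 CPM in chondrocyte-like cells. Inside the fold, the summed genes of sulphate supply in chondrocyte-like cells were at 2255 (2196 to 2316) CPM in WT and 1749.7 (1704 to 1796) CPM in the mutant library. They were also lower in hypertrophic cells, at 1800 and 1615 CPM. In superficial cells they were higher, at 949 (903 to 998) and 1029 (999 to 1059) CPM, and in reserve cells they were at 1236 and 1294 CPM.

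Of the collagens that SLRPs bind and their cross-linking partners, 14 of 14 reached the minimum, with Col1a1 at 79972 and 72653 CPM in osteoblast-like cells and Col2a1 at 88440.0 and 86896 CPM in chondrocyte-like cells. In chondrocyte-like cells 7 of 13 were past the fold, against 5.76% of all genes, all higher in the mutant library (Col1a2, Col3a1, Col5a1, Col5a2, Col6a1, Col6a2 and Col6a3), in the same class where Dcn was higher. In hypertrophic chondrocyte-like cells 9 of 13 were higher, against 4.72% of all genes past the fold. These were Col1a1, Col1a2, Col3a1, Col5a1, Col5a2, Col6a1, Col6a2, Col6a3 and Lox. Col1a1 went from 1523 to 4834 CPM, although Dcn was at 56.0 and 52.6 CPM there. In both classes the BMSC list, mostly from Col3a1, which is among these genes, was also higher, as given above. Its part in these counts was not tested. In BMSC-like cells 2 of 13 were lower, against 5.32%, Col11a1 and the cross-linking enzyme Lox, the latter from 898 to 493 CPM. Col12a1 was lower in tendon-like (1 of 13, with Col2a1 higher, against 16.3%), superficial (1 of 13, against 3.89%, at 2092 and 1280.4 CPM) and reserve chondrocyte-like cells (1 of 13, against 3.93%). In mural-like cells 2 of 11 were lower (Col2a1 and Col11a1), against 7.27% of all genes past the fold. In osteoblast-like cells 1 of 13 was higher (Col6a1), against 3.76%. In HSPC-like cells 2 of 8 were higher (Col2a1 and Col6a1) and 2 lower (Col1a1 and Col1a2), against 3.10%. In osteoclast-like cells 3 of 3 were lower (Col2a1, Col11a1 and Col11a2), against 4.27%. Levels in blood cells were low: Col2a1 was at 916 and 1533 CPM in HSPC-like cells. The part of a few cells in these counts was not tested. In endothelial-like cells 0 of 9 were past the fold, against 2.17%. No difference between lists was tested. Of the bound ligands and receptors, 10 of 11 reached the minimum, and Tgfb2 was lower in chondrocyte-like cells (1 of 3, against 5.76% of all genes) and Bmp2 in hypertrophic chondrocyte-like cells (1 of 4, against 4.72%), with Lrp1 at 173 and 173 CPM in BMSC-like cells and Tgfb3 at 129.6 and 108 CPM in tendon-like cells. Of the genes for N-terminal processing, 2 of 4 did: Bmp1, the protease that trims the propeptide of Bgn and Dcn, was at 231 and 252 CPM in osteoblast-like cells, and Pcolce was higher in hypertrophic chondrocyte-like cells (1 of 2, against 4.72%) and at 856 and 765 CPM in tendon-like cells.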

How the data were processed

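The deposited values are UMI counts per gene and cell barcode, with zeros not listed. Per the submitters' processing notes and the study's methods, the authors made these counts from BD Rhapsody reads with bcl2fastq 2.19.1.403, UMI-tools 1.0.1, STAR 2.7.1a on mm10 and featureCounts 1.6.4, and no normalisation was applied to them. The study's limits on cells were applied: over 200 genes, under 5000 genes, and less than 30% of UMIs from mitochondrial genes. Counts were scaled to 10000 UMIs per cell and log-transformed, and both libraries were clustered together, without integration, on 1994 variable genes that held neither cell cycle genes nor SLRPs (scanpy 1.11.5, leidenalg 0.10.2, Python 3.11.15, R 4.3.3; 11 principal components, 20 neighbours, Leiden resolution 0.9, seed 7).

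Clusters were named from 22 marker lists. A name needed at least 3 markers at 2-fold or more over the other cells, after adding 20 CPM to both levels, and the most markers among the 10 leading genes with at least 50 UMIs. Where no list had a leading gene, 75% of a list at that fold gave the name, and a cluster with a stronger second list stayed unnamed. The check for a stronger second list was added after clusters led by genes of several lists had been seen. Levels are summed UMIs over summed totals of a class, with exact Poisson intervals. Ratios between libraries or classes have conditional binomial intervals and shares of cells Clopper-Pearson intervals (scipy 1.17.1). With 1 library per genotype no test was made. Genes needed at least 200 UMIs and a fold of 1.5 to count as past the fold, and a level of 0 was bounded by 3 UMIs. Named genes were all 10 members, the 3 genes most correlated with each, and at most 4 of each of 8 lists: other small leucine-rich repeat proteins, chain linker enzymes, chondroitin and dermatan sulphate enzymes, keratan sulphate enzymes, sulphate supply, collagens and cross-linking partners, bound ligands and receptors, and N-terminal processing. Beyond these, genes past the fold in a class are named with their counts. The members and lists were chosen with earlier results of these data known.

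Doublets were kept. Scrublet in scanpy called 33 WT cells (0.575%) and 0 mutant cells at its own threshold, so it did not work as a caller for the mutant library, and removal of the top 5% of scores was run as an alternative. The other alternatives were resolution 0.5, 30 principal components, separate clustering, SLRPs kept among the variable genes, a stricter filter (at least 1000 UMIs, mitochondrial share under 10%), means over cells or over clusters, totals without haemoglobin and mitochondrial genes, TMM scaling (edgeR 4.0.16), a fold of 2, a minimum of 50 UMIs, cells thinned to 1000 or 500 UMIs, and the classes that the authors list for WT barcodes. The ratio and interval functions were tested on simulated data. Gene coordinates are from GENCODE on GRCm38 and promoter windows from RefSeq on GRCm38.p6.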

Additional observations from a re-analysis of the deposited data

Results flagged for a closer look

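The ratio of Bgn between the libraries went opposite ways in HSPC-like and BMSC-like cells. It was 1.86 (Bmx-CreER Wls over WT) in HSPC-like cells and 0.619 in BMSC-like cells, so the former was 3.01 times the latter. The HSPC-like value rests on 96 WT and 130 mutant UMIs, 49.0% and 52.3% of them from 5 cells, and without the top 5% of cells by doublet score only 13 and 17 remained, under the minimum for a ratio. The BMSC-like ratio was 0.8198 at resolution 0.5 and 0.803 with the libraries clustered apart, inside the fold of 1.5. Osteoclast-like cells, another blood class, had 33.9 CPM in WT and 22.3 CPM in the mutant library. The difference between these ratios was not tested.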

How the results depend on the processing

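Each genotype was 1 library, so the intervals cover counting and not animals, litters or preparation. Classes were rebuilt from markers, and small ones rest on few cells, above all tendon-like cells (69 and 101). No paired analysis was possible because each group has 1 library and no test was made. No tendon-like or HSPC-like class was formed at resolution 0.5, no reserve class with 30 principal components, with the SLRPs kept among the variable genes, with the stricter filter or without the top doublet scores, and separate clustering did not give any of these 3 in both libraries, so those values are missing. For results given below with another value, the cause was not tested, except that a fold of 2 asks more and a minimum of 50 UMIs compares more genes.

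Of the 10 members, the reported highest class held for 5 in WT and 4 in the mutant library at resolution 0.5. With separate clustering it held for 5 in WT and for all but Dcn and Lum in the mutant library. It held for 7 in each library with 30 principal components and without the top doublet scores, where Omd was among those lost. With cells thinned to 500 UMIs, the largest share of cells with a UMI lay in the reported class for 6 in WT. Members past the fold were 2 in BMSC-like, superficial, chondrocyte-like and HSPC-like cells, 1 in tendon-like, osteoblast-like, hypertrophic and endothelial-like cells and 0 in mural-like and reserve cells as reported, 12 in all. At resolution 0.5 there were 6 of 9 in BMSC-like, 1 of 4 in superficial, 2 of 8 in reserve and 1 of 7 in chondrocyte-like cells. The shares of all genes past the fold in these classes were 5.92%, 5.46%, 3.62% and 5.95%. With 30 principal components there were 6 of 8 in BMSC-like, 0 of 6 in tendon-like, 0 of 5 in superficial and 0 of 8 in hypertrophic cells. Of all genes, 6.15%, 9.11%, 5.02% and 4.78% were past the fold in these classes. Separate clustering gave 5 in BMSC-like, 1 in mural-like, 4 in superficial, 5 in chondrocyte-like and 2 in hypertrophic cells, 19 in all, but the share of all genes past the fold was also larger there, at 11.2%, 15.5%, 10.6%, 11.9% and 10.3% in these classes against 5.32%, 7.27%, 3.89%, 5.76% and 4.72% as reported. With the SLRPs kept among the variable genes there were 1 of 6 in BMSC-like, 0 of 5 in superficial, 2 of 7 in hypertrophic and 1 of 1 in HSPC-like cells. The matching shares of all genes were 5.71%, 4.42%, 6.42% and 3.03%. The stricter filter gave 4 of 7 in BMSC-like, 2 of 8 in tendon-like, 1 of 4 in superficial, 2 of 7 in hypertrophic and 1 of 1 in HSPC-like cells. In the same order, 5.64%, 7.54%, 4.88%, 6.05% and 3.20% of all genes tested were past the fold. Without the top doublet scores there were 4 of 6 in BMSC-like, 2 of 8 in tendon-like, 0 of 5 in osteoblast-like, 1 of 5 in superficial and 3 of 7 in hypertrophic cells. In these classes 5.21%, 4.95%, 3.43%, 5.18% and 6.25% of all genes were past the fold. Endothelial-like cells had 0 of 1, against 2.28% of all genes, since Fmod was under the minimum there. None could be compared in HSPC-like cells. Means over cells gave 2 in tendon-like, 1 in mural-like and 1 in chondrocyte-like cells, and clusters weighted equally gave 0 in endothelial-like cells. At a fold of 2 there were 0 in BMSC-like, tendon-like, osteoblast-like, chondrocyte-like, hypertrophic and endothelial-like cells, 1 in superficial and 1 in HSPC-like cells, 2 in all, with 0.165% to 5.54% of all genes past it. A minimum of 50 UMIs gave 4 in BMSC-like, 5 in tendon-like, 2 in osteoblast-like, 1 in reserve, 4 in endothelial-like, 5 in HSPC-like and 3 in osteoclast-like cells, 29 in all, with 7.28% to 21.4% of all genes past the fold. Epyc in hypertrophic chondrocyte-like cells turned to a ratio of 1.04 with separate clustering.

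Of 163 recomputed class levels, 53 stayed within their interval and 110 moved, 24 of them over 1.5-fold. Of 121 recomputed ratios past the fold, 106 stayed past it. These include equal weighting of clusters, which returns the reported ratio in classes of 1 cluster, so the count overstates how stable the ratios were. TMM multiplied ratios by 0.9502 to 1.053 and gave 3 past the fold in BMSC-like cells, with Lum added, and 3 in superficial cells, with Fmod added.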
